A study of Mus musculus with 36 samples.

Results

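The genes described here are 10 genes of vessel tone, chosen by symbol with earlier results of these data known. They are Edn1, Ednra, Ednrb and Ece1 of the endothelin system, and Ptgs1, Ptgs2, Ptges, Ptgis, Ptgds and Ptgir of the prostaglandin system. All 10 were found among the 24421 genes of the count tables. RNA was measured by bulk sequencing in hepatocytes, in stellate cells (HSCs) and in the endothelial cells of the sinusoids (LSECs), all from livers of C57BL/6 mice, with 36 libraries in 9 groups of 4. Each cell type had a group labelled WT, which the design text gives as mice that received PBS, a group taken 12 h and a group taken 36 h after diphtheria toxin (DT) was given. The study used DT to remove Kupffer cells, the macrophages that live in the liver sinusoids, and the comparisons ask how the neighbouring cells respond. The labels give no genotype and no sex, do not say whether a library is 1 mouse, and hold no group that received DT and kept its Kupffer cells, so toxin and depletion cannot be told apart and each p-value measures the spread between libraries. In bulk RNA, fewer cells of a type and less RNA per cell cannot be told apart either.

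Endothelin is a peptide that makes vessels and perisinusoidal cells contract. Its precursor is cut by a converting enzyme, which Ece1 encodes, and the mature peptide, a product of Edn1, acts on 2 receptors: Ednra, which drives contraction, and Ednrb, which on endothelium clears the peptide and triggers nitric oxide release. Prostanoids start with arachidonic acid, which the cyclooxygenases Ptgs1 (the constitutive form) and Ptgs2 (the inducible form) turn into a common precursor. Terminal synthases then make prostaglandin E (Ptges), prostacyclin (Ptgis) or prostaglandin D (Ptgds), and Ptgir is the receptor for prostacyclin, a relaxing signal that acts through cyclic AMP. In the liver, stellate cells wrap the sinusoids and are the main contractile cell of the sinusoidal wall.

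Levels are CPM, counts per 1000000 of a library, with library sizes scaled once over all 36 libraries by TMM, so that cell types can be set side by side. Libraries held 25.4 to 31.7 gene counts in units of 1000000. The defining markers matched the labels: a sum over 10 HSC markers came to 33922 ± 3229 CPM for HSC WT, 13.2 ± 0.538 in LSEC WT and 28.8 ± 10.5 in hepatocyte WT (SD, n = 4 each), and 10 LSEC and 10 hepatocyte markers were likewise highest in their own cells. At 12 h the HSC sum in HSCs was 24960 ± 4824 CPM. The LSEC sum in LSECs was 22211 ± 2064 CPM at 12 h and 28449 ± 1651 in WT. For both, each 12 h library lay below each WT library. Of the 10 HSC markers in HSCs, 3 were higher and 2 lower at 12 h (edgeR, adjusted p under 0.05), where 32% of genes were called. Of the 10 LSEC markers in LSECs, 1 was higher and 3 lower, where 18.2% of genes were called. There were 3 libraries that stood apart: the lowest HSC marker sums of their groups were in HSC 12 h replicate 3 (18002 CPM, the others 25656 to 28901) and HSC 36 h replicate 4 (20377 CPM, the others 32657 to 35939), and LSEC 36 h replicate 4 held 199.9 CPM of HSC markers against 20.2 to 46.6 in the other LSEC 36 h libraries. No outlier criterion was applied to choose these libraries, and leaving them out was not planned beforehand. Calls that change without them are given both ways.

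The promoters of Ptgs2, Ptgir and Ptgs1 are shown since these are the members with the clearest changes at 12 h in HSCs. They run from 250 bases before to 50 bases after the RefSeq transcript start (GRCm38.p6, the build of mm10), 5′ to 3′ on the gene's strand, with matches to 7 motifs in capitals.

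Ptgs2 promoter, chr1:150099781-150100080 (+ strand): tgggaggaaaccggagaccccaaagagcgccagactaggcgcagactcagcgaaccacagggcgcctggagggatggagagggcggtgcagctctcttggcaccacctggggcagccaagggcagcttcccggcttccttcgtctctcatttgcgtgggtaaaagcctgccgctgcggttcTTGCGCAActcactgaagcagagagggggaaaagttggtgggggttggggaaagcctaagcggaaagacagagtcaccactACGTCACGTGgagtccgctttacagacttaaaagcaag
Ptgir promoter, chr7:16906240-16906539 (+ strand): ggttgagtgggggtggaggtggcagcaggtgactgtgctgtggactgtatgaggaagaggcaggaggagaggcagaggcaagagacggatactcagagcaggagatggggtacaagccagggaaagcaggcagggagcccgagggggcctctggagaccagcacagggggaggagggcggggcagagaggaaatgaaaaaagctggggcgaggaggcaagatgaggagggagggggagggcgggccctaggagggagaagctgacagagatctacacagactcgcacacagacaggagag
Ptgs1 promoter, chr2:36230176-36230475 (+ strand): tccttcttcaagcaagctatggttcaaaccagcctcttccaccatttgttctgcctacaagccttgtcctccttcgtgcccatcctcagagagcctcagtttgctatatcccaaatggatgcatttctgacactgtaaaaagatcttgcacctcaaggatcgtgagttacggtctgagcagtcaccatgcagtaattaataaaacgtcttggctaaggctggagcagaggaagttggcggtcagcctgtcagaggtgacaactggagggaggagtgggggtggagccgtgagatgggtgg

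The motifs were read on both strands. They were the C/EBP palindrome, written TTGCGCAA, the half-site of the cyclic AMP response element (CRE), written TGACGT, the E-box, written CACGTG, the AP-1 site, written TGANTCA, the GATA site, written AGATAA, the TATA box, written TATAAA, and the kappa B site. The Ptgs2 window held 3 matches: TTGCGCAA beginning 69 bases before the start, the CRE half-site on the reverse strand as ACGTCA at base 13 after the start, and CACGTG at base 17, the last pair sharing 2 bases. Of 32851 promoters in the RefSeq table, 0.183% held the C/EBP palindrome, 7.51% the CRE half-site, 7.15% the E-box, 7.81% the AP-1 site, 11.2% the GATA site, 13.6% the TATA box and 1.20% the kappa B site. The Ptgir and Ptgs1 windows held no match to any of them. RefSeq promoters were at hand for 9 of the 10 members. Ptgs2 lies on chromosome 1 (150100031 to 150108234, + strand), Ptgir on chromosome 7 (16906490 to 16910905, + strand) and Ptgs1 on chromosome 2 (36216742 to 36258593, + strand). The Ptgs1 window, 36230176 to 36230475, lies inside the span of the gene, at a transcript start downstream of its first base. The sequence around that first base was not read for motifs.

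**Figure D1:**
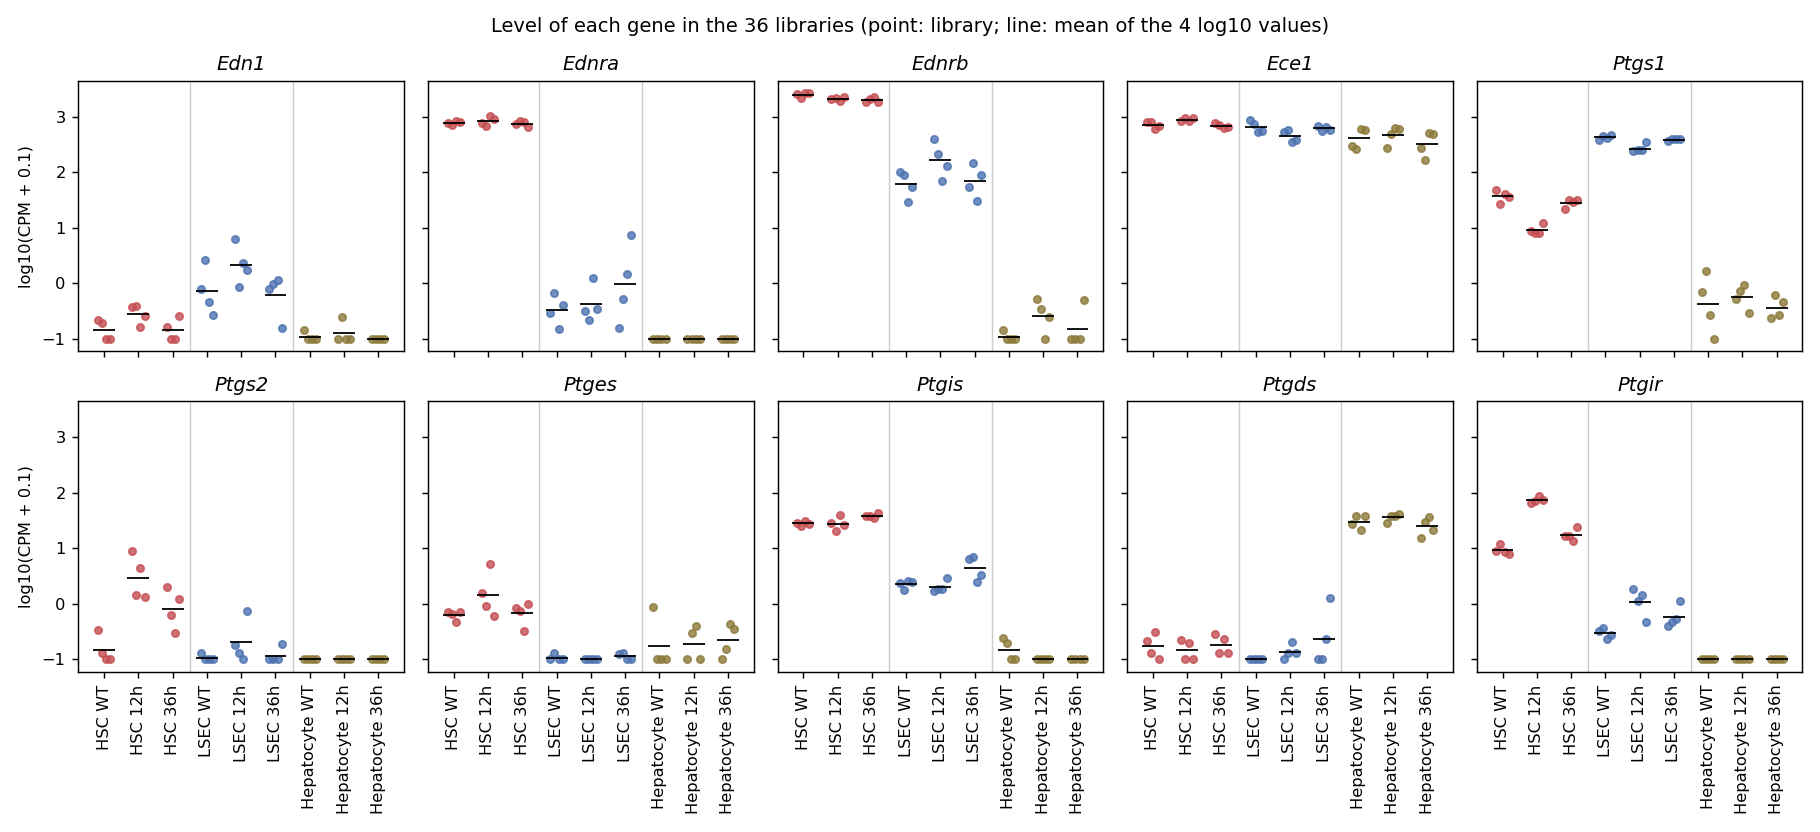
Level of each of the 10 genes, as log10(CPM + 0.1), in HSC, LSEC and hepatocyte libraries at WT, 12 h and 36 h; each point is 1 library, each line the mean of 4 log10 values, and a gene with no count sits at -1. Ednra, Ednrb, Ptgis and Ptgir are highest in HSCs, Ptgs1 in LSECs and Ptgds in hepatocytes, and Ptgir in HSCs peaks at 12 h (65.2 to 86.0 CPM).

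In the WT libraries both endothelin receptors were highest in HSCs among the cell types measured. Ednra reached 774 ± 55.1 CPM in HSC WT libraries, 0.284 ± 0.222 in LSEC WT and without a count in the 4 hepatocyte WT libraries (SD, n = 4). Every HSC library lay above every LSEC library (log2 fold change, HSC over LSEC, 11.41 ± 0.45 SE, adjusted p = 2.99e-09, quasi-likelihood test of edgeR, adjusted by Benjamini-Hochberg over all genes, as for every adjusted p below unless another tool is named), and against hepatocytes the level was at least 20589-fold higher, taking 3 counts in the hepatocyte group as the floor. Ednrb reached 2472 ± 236 CPM in HSCs, against 68.5 ± 33.3 in LSECs and 0.0117 ± 0.0233, a single count in 4 libraries, in hepatocytes, and HSCs exceeded LSECs 35.6-fold (log2 5.15 ± 0.38 SE, adjusted p = 3.94e-08). Ednrb in LSECs was 2.77% of its level in HSCs, while the HSC marker sum in LSECs was 0.0388% of its own level in HSCs. Ednra in LSECs was 0.0367% of its HSC level, close to that marker share.

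The enzyme and the ligand were spread differently. Ece1 was high in all 3 cell types, with 722 ± 102 CPM for HSCs, 669.5 ± 151 for LSECs and 433 ± 178 for hepatocytes, and HSCs and LSECs did not differ beyond their spread (log2 fold change, HSC over LSEC, 0.09 ± 0.27 SE, adjusted p = 0.796). Ece1 in HSCs over hepatocytes passed the test by little (log2 0.71 ± 0.27 SE, adjusted p = 0.0294, with overlapping libraries), and the call was lost in each of 4 fits that left out 1 library (HSC WT replicate 1 or 2, or hepatocyte WT replicate 1 or 2; log2 0.53 to 0.67). Hepatocyte WT replicates 1 and 2, the libraries with high Malat1 RNA described below, had 301 and 260 CPM. Replicates 3 and 4 had 606 and 567 CPM, against 595 to 810 in the HSC WT libraries. Edn1, the ligand, had 0.700, 2.49, 0.364 and 0.170 CPM in the LSEC WT libraries, against 0.117, 0.0943, 0 and 0 in HSC WT and 1 count in all 4 hepatocyte WT libraries. It was low in all 3, every LSEC WT library exceeded every HSC and hepatocyte WT library, and it missed the filter on low counts of the WT fit.

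The prostaglandin enzymes divided the cell types. Ptgs1 was the member of LSECs, with 37.5 ± 8.98 CPM for HSCs, 425 ± 34.3 for LSECs and 0.579 ± 0.689 in hepatocytes, so that HSCs were 11.5-fold below LSECs (log2 -3.52 ± 0.41 SE, adjusted p = 4.44e-06). In HSCs the level was 8.82% of that in LSECs, while the LSEC marker sum in HSCs was 0.418% of its level in LSECs. Ptgis, prostacyclin synthase, averaged 27.9 ± 2.74 CPM for HSCs, 2.19 ± 0.333 for LSECs and 0.0590 ± 0.0704 in hepatocytes, 12.5-fold above LSECs in HSCs (log2 3.65 ± 0.23 SE, adjusted p = 7.11e-09). Ptgir, the prostacyclin receptor, averaged 9.21 ± 1.86 CPM for HSCs and 0.199 ± 0.0626 for LSECs, 45.2-fold apart (log2 5.498 ± 0.31 SE, adjusted p = 5.82e-08), and had no count in hepatocytes.

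Ptgds was the one member found mainly in hepatocytes, at 30.7 ± 8.10 CPM, with 0.0883 ± 0.0920 CPM (11 counts in 4 libraries) in HSCs and no count in LSEC WT libraries; hepatocytes were at least 1457-fold above LSECs if 3 counts are taken as the LSEC floor. Its level in HSCs was 0.288% of that in hepatocytes, near the 0.300% of the hepatocyte marker sum there. Ptges stayed at 0.375 to 0.615 CPM in the HSC WT libraries, with 1 count in all LSEC WT libraries and 17 counts in hepatocyte WT, all of them in replicate 1. Without that hepatocyte library, Ptges in LSECs over hepatocytes had a log2 fold change of 1.44, with it -4.24 ± 1.53 SE, so no order of those cell types can be read. Ptgs2 was all but absent at rest, with 9 counts in the HSC WT libraries, 1 in LSEC WT and 0 in hepatocyte WT.

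Of the 8 members tested between the WT groups, 7 differed between HSCs and LSECs (6 higher and 1 lower in HSCs), where 56.8% of 13389 tested genes did, 29.7% higher and 27.1% lower. Against hepatocytes, HSCs had 6 members higher and 1 lower, where 79.1% of genes differed, 43.2% higher and 35.9% lower, and LSECs had 5 higher and 2 lower, where 79% did, 42.7% higher and 36.3% lower. The median log2 difference was 4.76 over these members and 0.01 over all genes for HSCs over LSECs. A difference between these cell types was thus common among all genes. Ptgds in HSCs over LSECs is among the 6 although its HSC libraries held 11 counts in all (adjusted p = 0.0276), and the call was lost without HSC WT replicate 1 (adjusted p = 0.0594) or replicate 3 (adjusted p = 0.0709).

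Per kb of exon, the order of the members within a cell type was as follows. In HSC WT libraries Ednrb led at 579 CPM per kb, followed by Ednra at 141 and Ece1 at 136, which overlapped each other. Ptgis (10.9) and Ptgs1 (9.65) came next and overlapped, Ptgir stood at 2.76, and Ptges, Ptgds, Edn1 and Ptgs2 were under 0.2. In LSEC WT libraries Ece1 (126) and Ptgs1 (109) led and overlapped, then Ednrb at 16.1, Ptgis at 0.853 and Edn1 at 0.435. In hepatocytes Ece1 (81.8) and Ptgds (18.6) were the members above 1 CPM per kb. With coding length in place of exon length, Ptgis and Ptgs1 changed places in HSCs, Ptgis and Edn1 and also Ptgir and Ednra in LSECs, and Ptgs1 and Ptges in hepatocytes, in each case neighbours whose libraries overlapped.

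**Figure D2:**
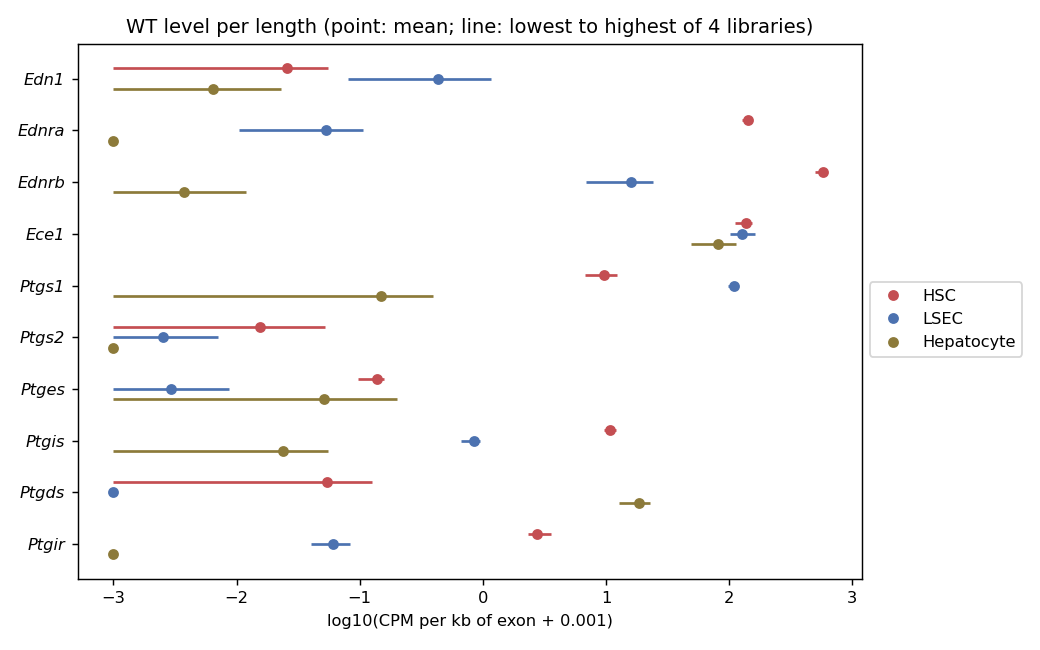
Level of each gene per kb of exon in the WT libraries, as log10(CPM per kb + 0.001), for HSCs, LSECs and hepatocytes; the point is the mean and the line runs over the 4 libraries, and -3 marks no count. Ednrb (579 CPM per kb in HSCs) lies highest, and Ece1 is the gene whose 3 cell types lie closest together.

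After DT the change with the smallest adjusted p among the members was that of the prostacyclin receptor in HSCs. In HSCs Ptgir had 8.84, 11.9, 8.36 and 7.73 CPM in WT, 65.2, 69.3, 86.0 and 74.4 at 12 h, and 16.8, 16.2, 13.5 and 23.6 at 36 h. All 12 h libraries lay above all others, and all 36 h libraries lay above all WT libraries. At 12 h Ptgir rose 8.11-fold over WT (log2 3.02 ± 0.19 SE, adjusted p = 9.42e-07). At 36 h it was below 12 h (log2 -2.09 ± 0.18 SE, adjusted p = 2.14e-05), and its 1.90-fold higher level than in WT missed the threshold (log2 0.93 ± 0.18 SE, adjusted p = 0.0734), which DESeq2 put at adjusted p = 0.000593.

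LSECs showed the same gene at a far lower level. Ptgir had 0.224, 0.273, 0.130 and 0.170 CPM in LSEC WT libraries, 1.75, 1.01, 1.36 and 0.369 at 12 h, and 0.297, 0.363, 0.435 and 1.04 at 36 h. Each 12 h library was above each WT library, and Ptgir rose 5.66-fold (log2 2.501 ± 0.56 SE, adjusted p = 0.00778) on 161 counts at 12 h against 28 in WT. Its level at 12 h was 1.52% of that in HSCs, and the HSC marker sum 0.0858%. Its lower level at 36 h than at 12 h missed the threshold (log2 -1.10 ± 0.51 SE, adjusted p = 0.145), and passed it without LSEC 36 h replicate 4, a library that stood apart (log2 -1.64, adjusted p = 0.0397). Hepatocytes had no Ptgir count at any time.

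Cyclooxygenases moved in opposite directions in HSCs at 12 h. HSC libraries had 47.8, 26.3, 40.0 and 35.9 CPM of Ptgs1 in WT, 8.67, 7.96, 7.96 and 12.2 at 12 h, and 21.3, 31.0, 29.3 and 31.1 at 36 h. The 12 h libraries lay below all others, and the 36 h and WT libraries overlapped. Ptgs1 fell 4.02-fold at 12 h (log2 -2.01 ± 0.20 SE, adjusted p = 2.91e-05), and the 36 h level was 3.02-fold above the 12 h level (log2 1.60 ± 0.20 SE, adjusted p = 0.000146).

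For Ptgs2 the HSC libraries had 0.234, 0.0314, 0 and 0 CPM in WT, 8.70, 1.36, 4.34 and 1.22 at 12 h, and 1.87, 0.532, 0.194 and 1.11 at 36 h. All 12 h libraries exceeded all WT libraries, and the 36 h libraries lay between and overlapped both. Ptgs2 rose at 12 h (log2 5.79 ± 1.03 SE, adjusted p = 0.0011), a fitted size that rests on 9 counts in WT and 492 at 12 h. Over the fits that left out 1 library, it ran from 5.02 to 8.13. At 36 h it missed the threshold against WT (log2 3.69 ± 1.05 SE, adjusted p = 0.305).

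In LSECs Ptgs1, a gene with far more CPM there than in HSCs, fell as well. It had 382, 439.9, 416 and 462 CPM in LSEC WT libraries, 236, 252, 246 and 344 at 12 h, and 366, 389, 401 and 388 at 36 h. The 12 h libraries lay below all others. The fall at 12 h was 1.56-fold (log2 -0.64 ± 0.12 SE, adjusted p = 0.00315), and the level at 36 h was higher than at 12 h (log2 0.49 ± 0.12 SE, adjusted p = 0.0113). Ptgs2 in LSECs had 1 count in WT, 25 at 12 h and 3 at 36 h over 4 libraries each and was not tested.

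Among the synthases, Ptges rose in HSCs at 12 h, a call that was lost without 1 library. Its CPM were 0.615, 0.566, 0.375 and 0.614 in WT, 1.44, 0.799, 5.17 and 0.515 at 12 h, and 0.735, 0.657, 0.227 and 0.894 at 36 h. The groups overlapped, and replicate 3 at 12 h, the library with the low HSC marker sum, was the high one. The rise (log2 1.87 ± 0.64 SE, adjusted p = 0.0374) shrank to log2 0.79 without that library (adjusted p = 0.268) and was called in 6 of 14 alternatives.

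Ptgis, which makes the ligand of Ptgir, was not called in HSCs at either time. HSC libraries had 28.9, 24.8, 31.1 and 26.7 CPM in WT, 28.4, 20.2, 39.3 and 26.3 at 12 h, and 38.2, 37.3, 34.2 and 42.5 at 36 h. WT and 12 h overlapped (log2 0.05 ± 0.16 SE, adjusted p = 0.831), and all 36 h libraries lay above all WT libraries without passing the test (log2 0.45 ± 0.16 SE, adjusted p = 0.536). Without the libraries that stood apart, Ptgis was higher at 36 h than at 12 h (log2 0.53, adjusted p = 0.0186), and with them it was not called (log2 0.40 ± 0.16 SE, adjusted p = 0.0863). In LSECs Ptgis had 2.30, 1.70, 2.44 and 2.32 CPM in WT, 1.59, 1.78, 1.74 and 2.83 at 12 h, and 6.21, 6.73, 2.36 and 3.20 at 36 h. The 36 h and 12 h libraries overlapped, and Ptgis was higher at 36 h than at 12 h (log2 1.20 ± 0.33 SE, adjusted p = 0.0192). That call was lost in turn without LSEC 12 h replicate 1, LSEC 36 h replicate 1 or LSEC 36 h replicate 2 (adjusted p = 0.0519 to 0.0640).

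The endothelin receptors of HSCs were not called at either time. Ednra had 779, 697, 827 and 792 CPM in WT, 772, 690.0, 1012 and 897 at 12 h, and 742, 825, 804 and 646 at 36 h, and the 3 groups overlapped. The log2 fold change was 0.14 ± 0.13 SE at 12 h (adjusted p = 0.426) and -0.04 ± 0.13 SE at 36 h (adjusted p = 0.979) over WT. Ednrb had 2518, 2126, 2626 and 2617 CPM in WT, 2097, 2140.3, 1915 and 2257 at 12 h, and 1856, 2113, 2296 and 1809 at 36 h. Its log2 fold changes of -0.21 ± 0.12 SE (adjusted p = 0.201) and -0.29 ± 0.12 SE (adjusted p = 0.661) missed the threshold.

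Ece1 in HSCs had 810.0, 797, 595 and 685 CPM in WT, 851, 935, 825 and 944 at 12 h, and 761, 699, 612 and 652 at 36 h. The 12 h libraries were above all WT and all 36 h libraries. The step over WT missed the threshold (log2 0.32 ± 0.12 SE, adjusted p = 0.0646) and passed it in DESeq2 (adjusted p = 0.0324), and Ece1 was lower at 36 h than at 12 h (log2 -0.41 ± 0.12 SE, adjusted p = 0.0264). This last call was lost without HSC 12 h replicate 2 or 4 or HSC 36 h replicate 2 or 3 (log2 -0.36 to -0.42, adjusted p = 0.0509 to 0.0823).

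In LSECs the endothelin genes varied widely between libraries. Ednrb had 102, 89.4, 29.5 and 53.0 CPM in LSEC WT libraries, 397, 215, 69.5 and 129 at 12 h, and 53.8, 148, 30.6 and 87.2 at 36 h. The mean was highest at 12 h and the groups overlapped (log2 1.58 ± 0.55 SE over WT, adjusted p = 0.0616). It passed the threshold without LSEC 12 h replicate 3 (adjusted p = 0.0349). Edn1 had 6.22, 0.769, 2.18 and 1.63 CPM at 12 h, against 0.700, 2.49, 0.364 and 0.170 in WT, and missed the threshold (log2 1.56 ± 0.83 SE, adjusted p = 0.211), which it passed without LSEC WT replicate 2 (log2 2.74, adjusted p = 0.0484). At 36 h Edn1 was at 0.0593 to 1.06 CPM.

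Ece1 in LSECs had 857, 728, 536 and 558 CPM in WT, 538, 585, 355 and 379.8 at 12 h, and 678, 555, 653 and 585 at 36 h. Its lower level at 12 h missed the threshold (log2 -0.51 ± 0.18 SE, adjusted p = 0.0705) and passed it in DESeq2 (adjusted p = 0.0379). Ednra in LSECs had 0.0540, 0.419, 1.39 and 7.30 CPM at 36 h, against 0.0520 to 0.577 in WT. The high value is replicate 4, the library with 199.9 CPM of HSC markers, and without it the log2 fold change of Ednra over WT was 1.12 (with it 3.004 ± 1.13 SE, not called). Ptgds had 1.19 CPM in replicate 4 and at most 0.136 in the other LSEC 36 h libraries, while HSC 36 h libraries averaged 0.0939 CPM. Replicate 4 also had the highest hepatocyte marker sum of the LSEC 36 h group (338.8 CPM). The source of its Ptgds was not tested.

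In all, 4 of the 8 members tested in HSCs were called at 12 h over WT (3 higher, 1 lower), where 32% of 12676 genes were called, 17% higher and 15.1% lower. Their median log2 fold change was 0.23, and 0.01 over all genes tested. In LSECs 2 of 7 members were called (1 higher, 1 lower), where 18.2% of 12286 genes were, 9.74% higher and 8.5% lower, with medians of 0.66 and -0.02. At 36 h over WT edgeR called 0 of 8 members in HSCs, where 0.142% of genes were called (0.134% higher, 0.00789% lower). An unadjusted p under 0.05 was found for 5 of these members and for 868 of 12676 genes, and DESeq2 called 1 member, Ptgir. In LSECs edgeR called 0 of 7, where 0% of genes were called. There 3 members and 1288 of 12286 genes had an unadjusted p under 0.05, and DESeq2 called 0 members. Between 36 h and 12 h, 3 of 8 members were called in HSCs, 1 higher and 2 lower, where 27.9% of genes were (12.9% higher, 15% lower). In LSECs 2 of 7 were called, both higher, where 21.3% of genes were (10.6% higher, 10.8% lower).

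**Figure D3:**
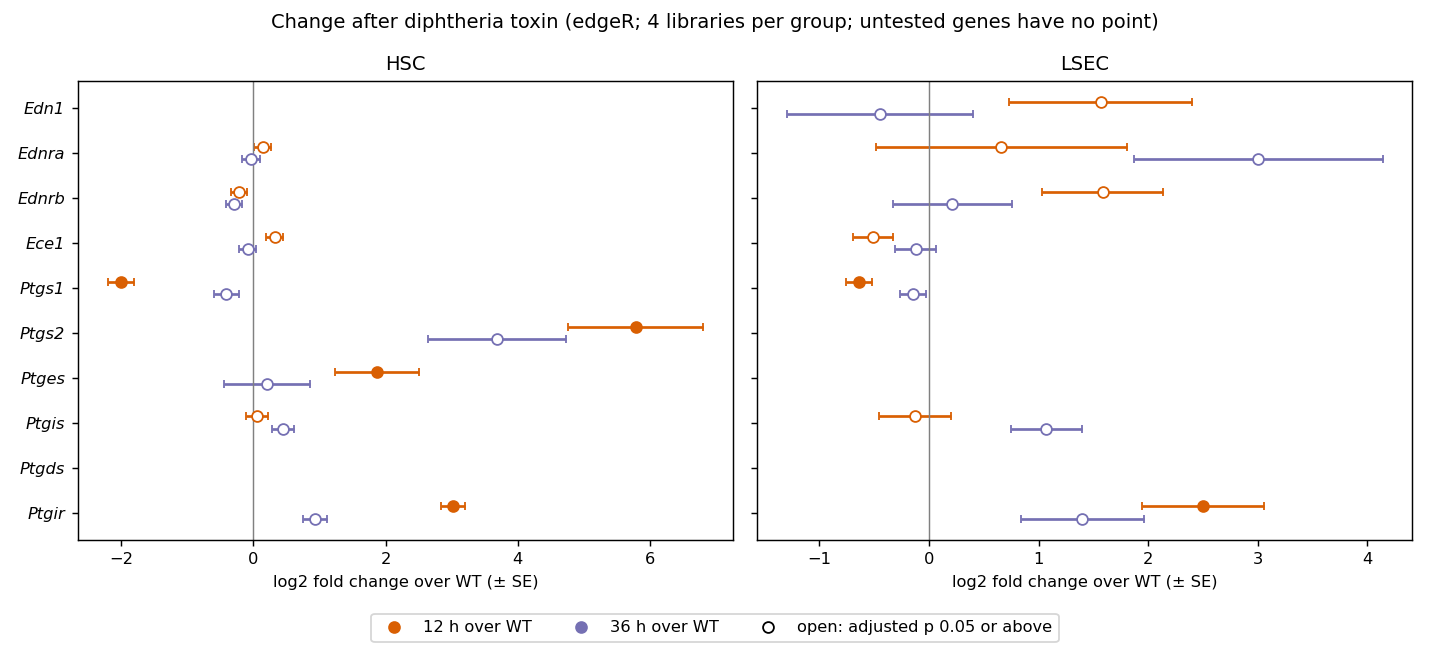
Log2 fold change over WT at 12 h and 36 h of the members tested in HSCs and LSECs, with SE, from 4 libraries per group; filled points have an adjusted p under 0.05. At 12 h Ptgir (3.02 in HSCs, 2.501 in LSECs) lies right of 0 and Ptgs1 (-2.01 in HSCs, -0.64 in LSECs) left of it in both cell types, and the 36 h points are open.

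Whether HSCs and LSECs responded differently was tested directly. The response of HSCs minus that of LSECs at 12 h was called for 0 of 10 members by edgeR over all 36 libraries, where 1.62% of 14104 genes were called (0.822% higher, 0.801% lower). An unadjusted p under 0.05 was found for 3 members and for 1644 of the 14104 genes, and DESeq2 called 1 member. For Ptgir the difference was log2 0.51 ± 0.58 SE (adjusted p = 0.847); a difference of that size was not detectable at this spread. For Ptgs1 it was log2 -1.37 ± 0.44 SE (adjusted p = 0.126), the fall being larger in HSCs, and it passed the threshold in DESeq2 (adjusted p = 0.0227) and in a fit of the 24 HSC and LSEC libraries alone (log2 -1.35, adjusted p = 0.00168). Ednrb differed by -1.80 ± 0.67 SE (adjusted p = 0.22) and Ece1 by 0.83 ± 0.40 SE (adjusted p = 0.417). With a replicate block in the fit of those 24 libraries, Ece1 passed the threshold (log2 0.859, adjusted p = 0.0156). Same-numbered HSC and LSEC libraries deviated together at 12 h but not at WT, so that block is uncertain. At 36 h 0 of 10 members were called, where 0% of genes were. The unadjusted p was under 0.05 for 2 members and for 567 of 14104 genes, and DESeq2 called 0 members.

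Hepatocytes showed no call for the 3 members tested at 12 h or 36 h over WT, where 0% of 11326 genes were called. The unadjusted p was under 0.05 for 0 members, and for 453 genes at 12 h and 563 at 36 h, and DESeq2 called 0 members. Ptgds had 26.8, 37.2, 21.1 and 37.6 CPM in hepatocyte WT libraries, 28.8, 37.3, 38.6 and 40.7 at 12 h, and 15.5, 30.1, 36.9 and 21.6 at 36 h, all overlapping. Ece1 had 301, 259.9, 606 and 567 CPM in WT, 275, 479.9, 614 and 595 at 12 h, and 267, 167, 503 and 495 at 36 h. The low values are those of the libraries with Malat1, a nuclear RNA, above 100 CPM (replicates 1 and 2 in WT and at 36 h, replicate 1 at 12 h). On that side Ece1 ran from 167 to 301 CPM and on the other from 479.9 to 614, at all times together, and with a term for the side its log2 fold change at 12 h over WT was -0.08, and without that term 0.16.

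Markers of other cells were read beside these changes. A sum over 8 Kupffer cell markers in HSCs came to 8.17 ± 5.31 CPM in WT, 1.02 ± 0.879 at 12 h and 4.10 ± 5.79 at 36 h, and 15.1 ± 5.55, 2.89 ± 1.38 and 6.18 ± 6.21 CPM in LSECs at the same times. Among 8 platelet and megakaryocyte markers, of which 2 had no count in HSC WT or 12 h libraries, the sum was 253 ± 47.8 CPM in HSC WT, 289.8 ± 35.5 at 12 h and 246 ± 55.8 at 36 h. Of these Pf4 stood at 52.8 ± 12.8 CPM in HSC 12 h libraries and 11.4 ± 1.89 in HSC WT (log2 2.24 ± 0.28 SE, adjusted p = 0.000119), and Itga2b at 237 ± 48.2 CPM at 12 h and 242 ± 48.3 in WT. In LSECs the same 8 markers summed to 5.79 to 9.69 CPM in WT, 11.05 to 25.6 at 12 h and 9.93 to 23.2 at 36 h, and Pf4 was again higher at 12 h (log2 2.02 ± 0.40 SE, adjusted p = 0.00433). The part of platelets in the changes of Ptgir and Ptgs1 was not tested. A sum over 6 smooth muscle markers in HSCs ran from 897 to 1228 CPM in WT, 1012 to 1132 at 12 h and 991 to 1183 at 36 h, with Cnn1 at or near 0 throughout. One of them, Des, is also an HSC marker. At 12 h Des rose (log2 0.588 ± 0.125 SE, adjusted p = 0.00326) and Smtn fell (log2 -0.533 ± 0.144 SE, adjusted p = 0.0127). Myh11 and Acta2 were not called. The 8 markers of mesothelium and portal fibroblasts summed to at most 3.45 CPM in any HSC library, and the 7 of large vessel endothelium, counted without Edn1, to 1218 to 1479.6 CPM in LSEC WT, 1114 to 1297 at 12 h and 1142 to 1313 at 36 h. Monocyte and neutrophil markers (7) summed to at most 5.66 CPM in any HSC library. In LSECs they summed to 5.34 to 11.4 CPM in WT, 6.52 to 19.4 at 12 h and 1.73 to 20.97 at 36 h, and the mesothelial and portal fibroblast list to 48.6 to 62.7, 55.9 to 79.9 and 78.8 to 110.5 CPM at the same times. Cd34, which endothelium also expresses, made up most of that list (53.1 CPM on average in WT, 67.8 at 12 h and 89.2 at 36 h), with Msln at most 0.215 CPM and Upk3b at most 0.154 CPM in any LSEC library, and Wt1 at 0. The part of these cells in the LSEC values of Ptgir, which are near 1 CPM, was not tested.

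The genes most like each member over the 12 libraries of its leading cell type are given as a description, by Pearson's r of log2 CPM; the libraries share their 3 time groups. Ptgir in HSCs was most like Timp1 (0.985), an inhibitor of matrix proteases, Mt2 (0.984), a metal-binding protein, and Tnfrsf21 (0.979), a death receptor. Ptgs2 in HSCs was most like Cxcl2 (0.943), a neutrophil chemokine, Rnd1 (0.936) and H2-Q4 (0.934). Ece1 in HSCs was most like Lpl (0.959), lipoprotein lipase, Trim8 (0.933) and Cabin1 (0.929), and Ptgs1 in LSECs most like Ap3m2 (0.957), Fut11 (0.949) and Rnf144a (0.944). For the other members only the first gene is given. In HSCs these were Srebf1 for Ednra (0.889), Apoa4 for Ednrb (0.886), Psmc1 for Ptges (0.923) and Mpg for Ptgis (0.904). Edn1 in LSECs was most like U2surp (0.921), and Ptgds in hepatocytes most like Pclo (0.890).

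Of 27 further prostanoid genes 18 were tested in HSCs at 12 h, of which 4 rose, 5 fell and 9 were not called, where 32% of all genes were called (17% higher, 15.1% lower). The median log2 fold change was -0.37 over the list and 0.01 over all genes tested. Ptger3, a prostaglandin E receptor that lowers cyclic AMP, had 4.49, 5.59, 2.49 and 11.8 CPM at 12 h, against 13.7, 31.7, 36.8 and 35.5 in WT, without overlap (log2 -2.25 ± 0.39 SE, adjusted p = 0.000977). Hpgd, the enzyme that inactivates prostaglandins, had 1.88, 3.17, 1.26 and 3.61 CPM at 12 h, against 8.40, 6.29, 9.18 and 5.47 in WT (log2 -1.54 ± 0.30 SE, adjusted p = 0.0017). Ptgr2, a reductase of the next step of breakdown, fell to 30.8 ± 2.40 CPM, against 49.7 ± 2.18 in WT (adjusted p = 0.000282). Pla2g6, a phospholipase that frees fatty acids from membranes, rose to 18.5 ± 2.42 CPM, against 12.8 ± 0.913 in WT (adjusted p = 0.00403). The other genes called are named after their values were seen: Pla2g4a, the main arachidonate-releasing phospholipase, rose (log2 1.23 ± 0.28 SE, 18.7 to 58.9 CPM against 13.6 to 18.3), as did Ptges3l and the transporter Abcc4, while Ptger2, a prostaglandin E receptor that raises cyclic AMP, and Cbr1 fell. Ptges3l and Abcc4 were no longer called without the libraries that stood apart (adjusted p = 0.178 for Ptges3l and 0.0751 for Abcc4), and over 14 alternatives they lost their call in 8 and 7.

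Ptger2, Ptges3, Ptgr2 and Ptger3 had the most CPM of this list in HSC WT libraries, with Ptger2 at 210.4 ± 34.5. In LSECs these were Slco2a1, the prostaglandin uptake transporter (629.6 ± 112 CPM), Hpgd (475 ± 151), Tbxa2r, the thromboxane receptor (175 ± 14.6), and Abcc4 (135 ± 23.7), and in hepatocytes Hpgd, Ptges3, Slco2a1 and Ptgr2. In LSECs at 12 h 1 of 14 tested genes of the list was called, Ptgr2, which fell to 26.4 ± 5.83 CPM, against 36.6 ± 1.77 in WT (adjusted p = 0.0423), where 18.2% of all genes were called. That call was lost in 9 of 14 alternatives, among them without any 1 of the LSEC WT libraries or without LSEC 12 h replicate 1 or 2 (adjusted p up to 0.106). The response of Hpgd at 12 h differed between HSCs and LSECs (log2 -1.90 ± 0.39 SE, adjusted p = 0.00488). In LSECs Hpgd had 348 to 836 CPM at 12 h, against 303 to 669 in WT, and the part of RNA from LSECs in its HSC values was not tested.

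Of 35 further vasoactive genes 27 were tested in HSCs at 12 h, of which 1 rose, 8 fell and 18 were not called, a share near the 32% of all genes called (17% higher, 15.1% lower). The median log2 fold change was -0.18 over the list and 0.01 over all genes tested. Gucy1a3, a subunit of the soluble guanylate cyclase that senses nitric oxide, fell to 613 ± 79.3 CPM, against 1064 ± 56.2 in WT (log2 -0.77 ± 0.12 SE, adjusted p = 0.000513). Npr2, the receptor for C-type natriuretic peptide, fell to 47.5 ± 8.17 CPM, against 91.9 ± 11.2 (adjusted p = 0.000401), and Pde5a, which breaks down cyclic GMP, to 15.2 ± 3.63 CPM, against 33.9 ± 5.71 (adjusted p = 0.00069). P2ry2, a receptor for extracellular ATP and UTP, rose to 26.0 ± 7.40 CPM, against 10.98 ± 1.67 (adjusted p = 0.00131). The other genes that fell, named after their values were seen, were Gucy1b3, Npr3, Prkg1, Adra1d and Ramp1. Prkg1 (adjusted p = 0.045) lost its call in 7 of 14 alternatives, among them DESeq2 (adjusted p = 0.0515), leaving out any 1 of the HSC WT libraries and leaving out HSC 12 h replicate 4 (adjusted p up to 0.0981). Adra1d (adjusted p = 0.0281) lost it in 6, among them without HSC WT replicate 3 or 4 or HSC 12 h replicate 1, 2 or 3 (adjusted p up to 0.106). Ramp1 (adjusted p = 0.0186) lost it without the libraries that stood apart (adjusted p = 0.0529) and without HSC WT replicate 3 or 4 (adjusted p = 0.0572 and 0.0506). Of the genes with the most CPM of this list in HSC WT libraries, Calcrl, Agtr1a and S1pr3 were not called at 12 h; the angiotensin receptor Agtr1a had 839 ± 112 CPM, against 964 ± 77.9 in WT.

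In LSECs 3 of 24 tested vasoactive genes fell, 0 rose and 21 were not called at 12 h, where 18.2% of all genes were called (9.74% higher, 8.5% lower). Npr1, the receptor for atrial natriuretic peptide, fell to 247 ± 34.1 CPM, against 412 ± 23.9 in WT (log2 -0.72 ± 0.12 SE, adjusted p = 0.00144). Npr2 fell to 33.0 ± 12.2 CPM, against 64.5 ± 9.99 (adjusted p = 0.00976), and Pde5a to 3.42 ± 0.697 CPM, against 5.58 ± 0.833 (adjusted p = 0.0392). The call of Pde5a was lost in 7 of 14 alternatives, among them without LSEC WT replicate 1, 2 or 4 or LSEC 12 h replicate 1, 3 or 4 (adjusted p up to 0.103). In WT LSECs Calcrl, Npr1, Ramp2 and S1pr1 had the most CPM of the list, and in WT hepatocytes Agtr1a, S1pr1, Avpr1a and Adra1b.

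Of 6 further endothelin genes 3 were tested in HSCs at 12 h, of which 1 rose, 1 fell and 1 was not called. Of all genes tested 32% were called there (17% higher, 15.1% lower). Ece2, a second converting enzyme, rose at 12 h to 7.48 ± 2.26 CPM, against 3.87 ± 1.02 in WT (log2 0.97 ± 0.26 SE, adjusted p = 0.012). Edn3, another endothelin peptide, named after its values were seen, fell to 0.0601 CPM, against 0.674 in WT (log2 -3.34 ± 0.80 SE, adjusted p = 0.00627), and Mme, a peptidase that degrades endothelin, was not called. In LSECs Ece2, the 1 gene of the list tested, was not called at 12 h. At 36 h over WT edgeR called 0 genes of the 3 lists in either cell type, where 0.142% of all genes were called in HSCs and 0% in LSECs.

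**Figure D4:**
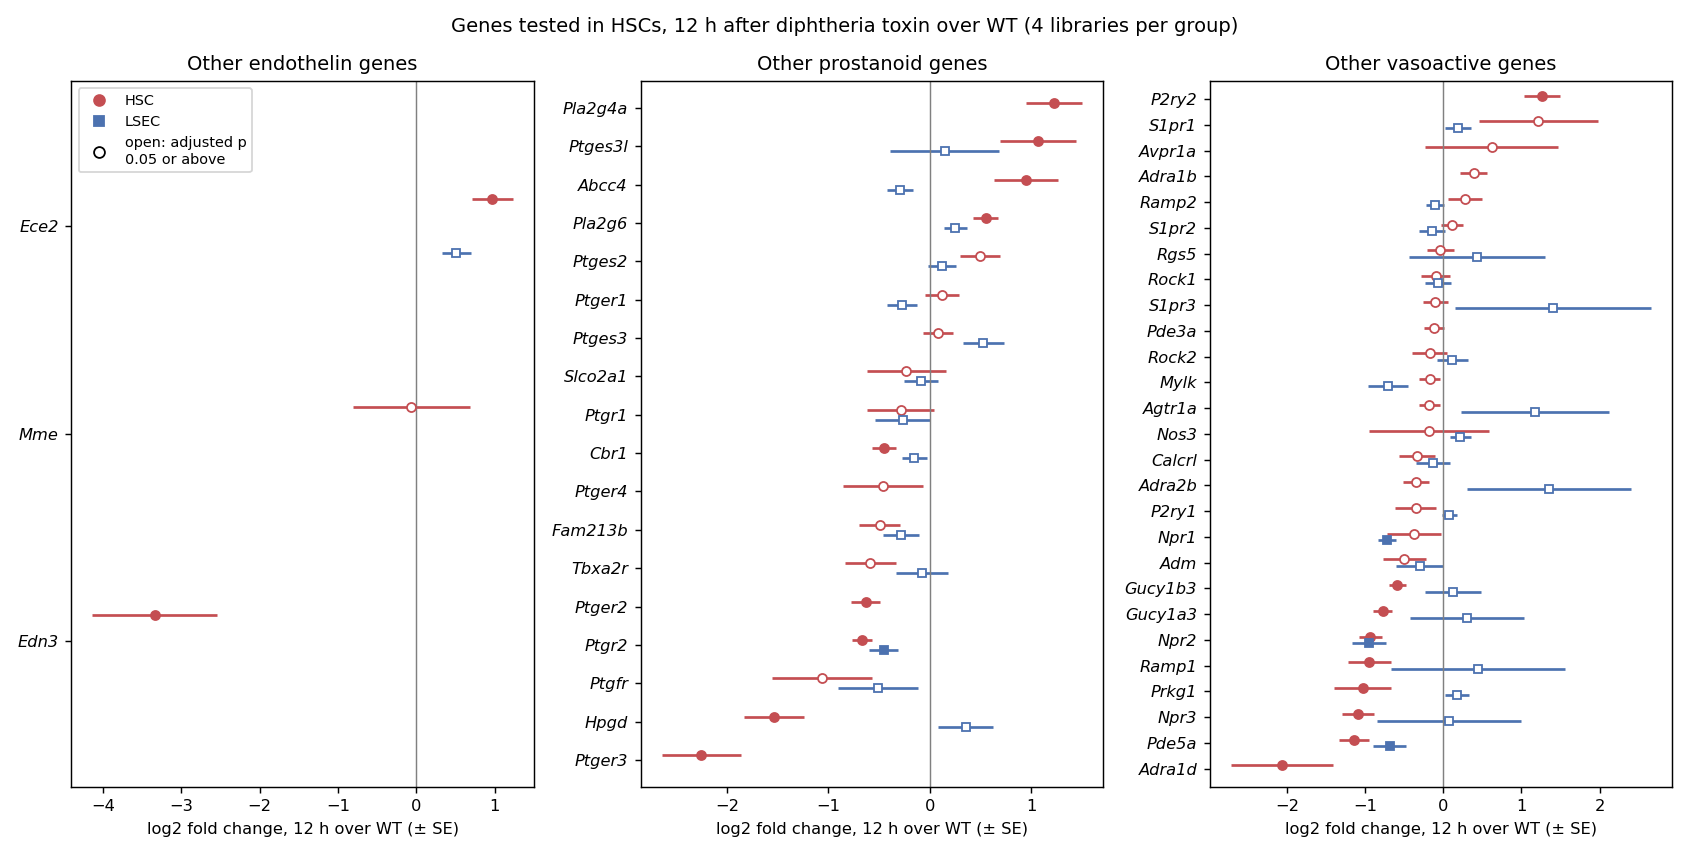
Log2 fold change at 12 h over WT, with SE, of the listed endothelin, prostanoid and vasoactive genes that were tested in HSCs (circles), with LSECs (squares) where tested there; filled points have an adjusted p under 0.05 (4 libraries per group). In HSCs the filled points right of 0 are led by P2ry2 and Pla2g4a, and those left of it include Ptger3 (-2.25), Hpgd (-1.54) and Gucy1a3 (-0.77).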

How the data were processed

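Bulk RNA-seq of 36 libraries was analysed from 1 table per library of whole-number read counts per gene, as the authors deposited them. Per the submitters' processing notes, reads were handled with FastQC 0.11.4, Trimmomatic 0.35, TopHat2 2.1.0 (mm10) and SAMtools 0.1.18; the sources used here name no counter, strand setting or annotation, and reads from opposite-strand overlaps of 35 to 156 bases (Edn1, Ednra, Ptgs1, Ptgis) cannot be assigned. Between 4.9% and 9.02% of reads lay in no gene and stayed out of library sizes. No 2 of 54 library pairs within groups were identical.

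Counts were tested with edgeR 4.0.16 in R 4.3.3 (glmQLFit, glmQLFTest; TMM; filterByExpr with minimum count 10 and total 15; Benjamini-Hochberg, threshold 0.05): 1 fit per cell type, 1 of the 12 WT libraries and 1 of all 36 for response differences. Each SE was computed from the log2 fold and the root of F. Genes placed on GENCODE vM21 and RefSeq GRCm38.p6 gave lengths and positions. The fitting steps were also run on simulated counts with known changes. Those counts held no library that stood apart and no Malat1 split, so they do not test the fits against either. Bounds use 3 counts and cover counting error only. Alternatives were RLE scaling, no filter, DESeq2 1.42.0, fewer groups, a replicate block and leaving out libraries. Same-numbered libraries deviated together in every pair (r above 0.1) for hepatocytes at 36 h and WT (0.415 to 0.527) and for HSCs with LSECs at 12 h (0.121 to 0.352) and 36 h (0.136 to 0.204), but not at WT (from 0.0315), nor elsewhere, so the number was not used as a block. Hepatocyte 36 h and WT libraries of unlike number on the same Malat1 side also deviated together (r from 0.291 to 0.523). In both groups replicates 1 and 2 lie above 100 CPM of Malat1 and replicates 3 and 4 below.

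The members and gene lists were chosen with earlier results of these data known. Named from the lists were up to 4 called genes of lowest adjusted p that reached 1 CPM in the higher of the groups, and the 4 of highest WT level per cell type. From all genes, up to 3 of highest r were named per member.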

Additional observations from a re-analysis of the deposited data

Results flagged for a closer look

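Among 41 groups of 4 libraries in which a member averaged at least 1 CPM, 3 held a library far from the other 3 by Dixon's 95% criterion for 4 samples, gap over range; chance alone flags about 1 in 20 groups. All 3 were replicate 4 at 12 h. Ptgs1 was 12.2 CPM in HSC 12 h replicate 4, the others 7.96 to 8.67, and 344 CPM in LSEC 12 h replicate 4, the others 236 to 252. Ptgis was 2.83 CPM in LSEC 12 h replicate 4, the others 1.59 to 1.78.

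The response of Hpgd at 12 h differed between HSCs and LSECs in the test of the difference itself (log2 -1.90 ± 0.39 SE, adjusted p = 0.00488, edgeR). Over the 21 alternatives it kept its direction and its call, with adjusted p from 0.000113 to 0.0262. The gene had 2.48 ± 1.09 CPM at 12 h and 7.33 ± 1.74 in WT in HSCs, and 601 ± 234 CPM at 12 h and 475 ± 151 in WT in LSECs (SD, n = 4), so the test compares relative changes at very unequal levels. The LSEC marker sum in HSCs was 0.512% of its level in LSECs at 12 h and 0.418% in WT. The part of RNA from LSECs in the HSC values of Hpgd was not tested.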

How the results depend on the processing

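Ptgir, Ptgs1 and Ptgs2 in HSCs and Ptgir and Ptgs1 in LSECs at 12 h over WT kept their direction and their call in all 14 alternatives each (Ptgir in HSCs log2 2.94 to 3.17, Ptgs1 -2.17 to -1.86). RLE scaling moved no median of all genes by over 0.05 log2. Members called changed by over 1.5 times as follows: HSC 36 h over WT 1 (Ptgir) without the filter and in DESeq2; LSEC 12 h over WT 4 with the replicate block (Ednrb and Ece1 added); WT LSEC over hepatocyte 4 with only those groups fitted; the response difference at 12 h 1 (Ptgs1) in DESeq2 and in the 24-library fit, and 2 (Ptgs1, Ece1) with the replicate block in that fit. Same-numbered libraries deviated together in every pair for HSCs with LSECs at 12 h and 36 h. They did not within HSCs, within LSECs or between the WT groups, so for those the block is uncertain. With it, calls were gained by Ece1 in HSCs at 12 h over WT (log2 0.331, adjusted p = 0.0330) and Ptgs2 in HSCs at 36 h over 12 h (-1.95, 0.0362). In LSECs they were gained by Ednrb at 12 h over WT (1.497, 0.00924) and 36 h over 12 h (-1.26, 0.0181) and by Ece1 at 12 h over WT (-0.510, 0.0362). The block lost the call of Ptges in HSCs at 12 h (1.59, 0.112). In WT it lost Ptgds in HSCs over LSECs (adjusted p = 0.0698), Ece1 in HSCs over hepatocytes (0.0572) and Ptges in LSECs over hepatocytes (0.0534). Among the listed genes it lost Ptges3l and Adra1d in HSCs and Ptgr2 in LSECs at 12 h, and Ptger2 in WT LSECs over hepatocytes. Leaving out 1 library gave 1 to 3 for LSEC 36 h over 12 h, 3 to 4 for HSC 12 h over WT, 2 to 4 for HSC 36 h over 12 h, 2 to 3 for LSEC 12 h over WT, 7 to 8, 6 to 7 and 7 to 9 for the WT comparisons of HSC with LSEC, HSC with hepatocyte and LSEC with hepatocyte, and 0 elsewhere. The cause of these shifts was not tested. Signs turned for members not called, and for Ptges between WT LSECs and hepatocytes. Without the libraries that stood apart, log2 was -0.128 for Ptgis in HSCs at 12 h, and at 36 h 0.0355 for Ednra and -0.0028 for Ptges in HSCs. In hepatocytes at 12 h the Malat1 term gave -0.0811 for Ece1 and 0.458 for Ptgs1, and the replicate block 0.157 for Ptgs1. Leaving out 1 library each, log2 over WT ran for HSCs from -0.128 to 0.186 (Ptgis, 12 h), -0.0853 to 0.0249 (Ednra, 36 h) and -0.0164 to 0.483 (Ptges, 36 h); for LSECs from -0.519 to 1.27 (Ednra, 12 h) and at 36 h -0.798 to 0.712 (Edn1), -0.266 to 0.483 (Ednrb) and -0.216 to 0.0151 (Ece1); for hepatocytes from -0.0213 to 0.351 (Ece1, 12 h), -0.607 to 0.927 (Ptgs1, 12 h) and -1.43 to 0.103 (Ptgs1, 36 h). In WT it ran from -0.0044 to 0.237 for Ece1 (HSC over LSEC) and -5.64 to 1.44 for Ptges (LSEC over hepatocyte, called with all libraries). Response differences ran at 12 h from -0.858 to 1.13 (Edn1), -1.13 to 0.636 (Ednra) and -0.0123 to 0.397 (Ptgis), and at 36 h from -0.754 to 1.17 (Edn1), -0.111 to 0.123 (Ece1) and -0.673 to 0.0551 (Ptgir).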
